A study of Mus musculus with 2 samples.

Results

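Complement is a protein cascade of innate immunity, and the genes described here are the 5 that encode complement C3, factor B (Cfb), C5 (Hc, the mouse name of the C5 gene), factor H and the decay regulator CD55 (Cd55). They were found by Ensembl identifier among the 31053 genes of the count tables, and all 5 were present. Wherever a complement gene outside these 5 is named, it comes from a list of 52 genes that covers the pathways, regulators and receptors, of which 51 are in the tables. The cells came from lungs of C57BL/6JRj mice aged 3 months (young) or 18 months (old), which had received saline (control) or 2.5 mg/kg lipopolysaccharide (LPS, a bacterial cell wall component that triggers inflammation) 24 h earlier. All 4 groups share the strain, the enzymatic lung digestion and the sort for living cells that carry EpCAM, an epithelial surface protein. A hashtag antibody marked the cells of each group before the groups were pooled on 1 lane. The experiment was carried out 2 times, so each group has 2 libraries, 1 on each lane. The labels do not state how many mice each library represents.

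C3 sits at the centre of the cascade, where its cleavage marks surfaces for uptake. Factor B joins cleaved C3 in the enzyme of the alternative pathway, which cleaves further C3. C5 is cleaved next and starts the membrane attack complex. Factor H, a soluble protein, and CD55, a protein anchored on the cell surface, hold the C3-cleaving enzymes in check. The liver is the main source of circulating complement, and alveolar epithelial type 2 (AE2) cells, the surfactant producers of the alveolus, are known to make several components locally.

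The cells were clustered and named by marker transcripts. Of 11232 cells, 8611 (76.7%) were AE2-like, 904 ciliated-like, 518 alveolar macrophage-like, 186 dendritic-like and 179 club/secretory-like, and 716 stayed unnamed. The labels call the source AE2 cells, and the 7 AE2 markers summed to 268000 to 306000 CPM (UMIs of a gene per 1000000 UMIs of the library's class) in the AE2-like cells of the control libraries. That sum was 82300 to 117000 CPM in the LPS libraries. No marker of this list was at 0, meaning 0 UMIs in the AE2-like cells of all 8 libraries together. The AE2-like cells of a library were added up, giving 699 to 1405 cells per library, and libraries, not cells, were the replicates. Libraries held 6228266 to 15435789 UMIs (counted molecules) before filtering, and 12.1% to 34.7% of the barcodes were removed per library.

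The C3 gene lies on chromosome 17 (chr17:57203970-57228136, minus strand, GRCm38) and Cfb on the same chromosome (chr17:34856374-34862518, minus strand). Hc lies on chromosome 2 (chr2:34983331-35061438, minus strand) and Cd55 on chromosome 1 (chr1:130439027-130462744, minus strand). All are annotated as protein coding. Reads at transcript ends are shared between annotated genes for some of them. Of 60-base windows in the last 500 bases of its transcripts, Cfb shared 68.2% with Gm20547, an overlapping gene model that was counted at 0 UMIs in all AE2-like libraries, and Cd55 shared 10.5% with its paralog Cd55b. C3 and Hc shared 0%. Cfb levels are therefore uncertain to the extent that ambiguous reads were not counted. Hc and Cd55 each overlap an annotated gene on the opposite strand.

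C3 and Hc moved in opposite directions in these cells, so their promoter windows are shown for comparison. RefSeq windows (GRCm38.p6, 250 bases before to 50 after the annotated start) were found for 3 of the 5 genes. The C3 window is chr17:57228087-57228386 and the Hc window chr2:35061363-35061662, both on the minus strand. Capitals mark matches to TTNNGNAA, letters typical of sites for C/EBP factors, and to TATAAA, the TATA box letters.
C3 promoter: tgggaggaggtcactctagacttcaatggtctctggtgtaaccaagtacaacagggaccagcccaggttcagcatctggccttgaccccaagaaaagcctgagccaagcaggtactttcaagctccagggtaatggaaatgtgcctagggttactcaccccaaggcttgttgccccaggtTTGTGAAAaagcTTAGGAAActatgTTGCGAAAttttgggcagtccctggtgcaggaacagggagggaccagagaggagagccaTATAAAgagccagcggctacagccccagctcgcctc
Hc promoter: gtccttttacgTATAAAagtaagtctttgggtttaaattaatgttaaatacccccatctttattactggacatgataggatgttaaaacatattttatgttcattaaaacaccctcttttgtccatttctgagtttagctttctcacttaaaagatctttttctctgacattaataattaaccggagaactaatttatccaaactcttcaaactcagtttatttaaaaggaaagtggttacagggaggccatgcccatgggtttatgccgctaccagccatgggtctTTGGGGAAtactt
The C3 window held 3 matches to TTNNGNAA, which begin at -70, -58 and -45 from the annotated start. Among all 27025 promoter windows, 40.7% held at least 1 such match on either strand and 3.66% at least 3. The Hc window held 1 match, which begins at 38 bases downstream. TATAAA was found once in each, at 15 in C3 and at -239 in Hc, and 14.2% of all windows held it. The letters TTCNNNGAA (GAS, typical of sites for STAT factors, in 8.47% of all windows) were not in the C3, Hc or Cd55 windows. Motifs were searched on both strands, and overlapping matches were counted separately. The matches describe letters only, and binding was not measured.

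In AE2-like cells, C3 rose 8.48-fold in young and 7.29-fold in old mice after LPS, and Cfb rose 34-fold and 64-fold. Hc was 6.78-fold and 5.94-fold lower, and Cd55 1.46-fold and 1.34-fold lower. These were the 4 members with enough counts for a test. All 4 of the 4 tested members were called (adjusted p under 0.05) in the young and in the old comparison, 2 higher and 2 lower in each. Cfb had at most 5 UMIs in any control library and passed the count filter through LPS libraries. Factor H, low in both treatments, was not tested, so this count leans towards genes that differ. Among all 11312 genes tested, 41.1% were called in the young comparison (22.2% higher, 18.9% lower) and 49.1% in the old (25.6% higher, 23.6% lower), so a call alone was common. The median log2 fold change of all genes was -0.01 at both ages.

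C3 showed the most even rise. In TMM-scaled CPM, its levels were 152 and 181 in young control, 1536 and 1296 in young LPS, 175 and 165 in old control, and 1175 and 1308 in old LPS (lane 1, then lane 2). Every LPS library lay far above every control library, and young and old libraries of the same treatment overlapped. The log2 fold change was 3.08 ± 0.12 (SE) in young mice (adjusted p = 5.08e-12, edgeR quasi-likelihood test) and 2.87 ± 0.12 in old mice (adjusted p = 1.1e-11). Within lanes, the young change was 3.34 and 2.84 and the old change 2.74 and 2.99.

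Cfb was almost silent in control cells. It had 3 and 3 UMIs in young control and 3 and 5 in old control, against 164 and 161 in young LPS and 376 and 531 in old LPS. In CPM that was 0.772 and 0.438, then 21.5 and 17.7 in young mice, and 0.486 and 0.661, then 34.2 and 42 in old mice. The LPS libraries of both ages stood apart from the controls, and the old LPS libraries stood above the young LPS ones. The log2 fold change was 5.09 ± 0.33 in young (adjusted p = 3.66e-09, edgeR) and 6.00 ± 0.27 in old mice (adjusted p = 3.98e-11). From the summed UMIs alone, the LPS level was 35.0-fold the control level in young mice (exact 95% counting interval 15.9 to 96) and 63.9-fold in old mice (32.3 to 149), and such intervals cover counting error only.

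Hc fell at both ages. Its CPM were 1422 and 1561 in young control and 199 and 240 in young LPS, then 1377 and 1475 in old control and 134 and 346 in old LPS. No LPS library overlapped a control library, and the old LPS libraries differed from each other more than any other pair. The log2 fold change was -2.76 ± 0.50 in young (adjusted p = 0.0136, edgeR) and -2.57 ± 0.49 in old mice (adjusted p = 0.0138). Within lanes, the young change was -2.83 and -2.70 and the old change -3.37 and -2.09. Leaving out 1 library at a time kept the direction, at -2.90 to -2.63 in young and -3.41 to -2.04 in old mice. The young call was lost without young control 2, young LPS 1 or young LPS 2, and the old call without old control 1 or old control 2. The fit takes the spread from all 8 libraries together, so the unequal old LPS pair also enters the young SE.

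Cd55 changed least. Its CPM were 52.8 and 40.4 in young control, 32.7 and 30.1 in young LPS, 49.1 and 54.9 in old control, and 32.9 and 44.6 in old LPS. Control and LPS libraries of the same age did not overlap, but the gap in old mice was smaller than the spread within old LPS. The log2 fold change was -0.55 ± 0.16 in young (adjusted p = 0.0153, edgeR) and -0.42 ± 0.15 in old mice (adjusted p = 0.0317). The old call was lost in DESeq2 (adjusted p = 0.0881) and without old control 1, old control 2 or old LPS 1 (adjusted p = 0.0628, 0.213 and 0.153), and the young call without young control 1 or young LPS 2 (adjusted p = 0.139 and 0.101). When cells of all classes were summed, the old change turned to 0.18 (adjusted p = 0.625) and the young change was -0.36 (adjusted p = 0.351). Ciliated-like cells, which hold more Cd55 per UMI, numbered 163 and 52 in the old control and 266 and 101 in the old LPS libraries. Their part in that turn was not tested.

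Factor H had 8 UMIs in all AE2-like cells together, at most 2 per library, and could not be tested there. It is therefore counted as a member without a result in AE2-like cells.

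**Figure D1:**
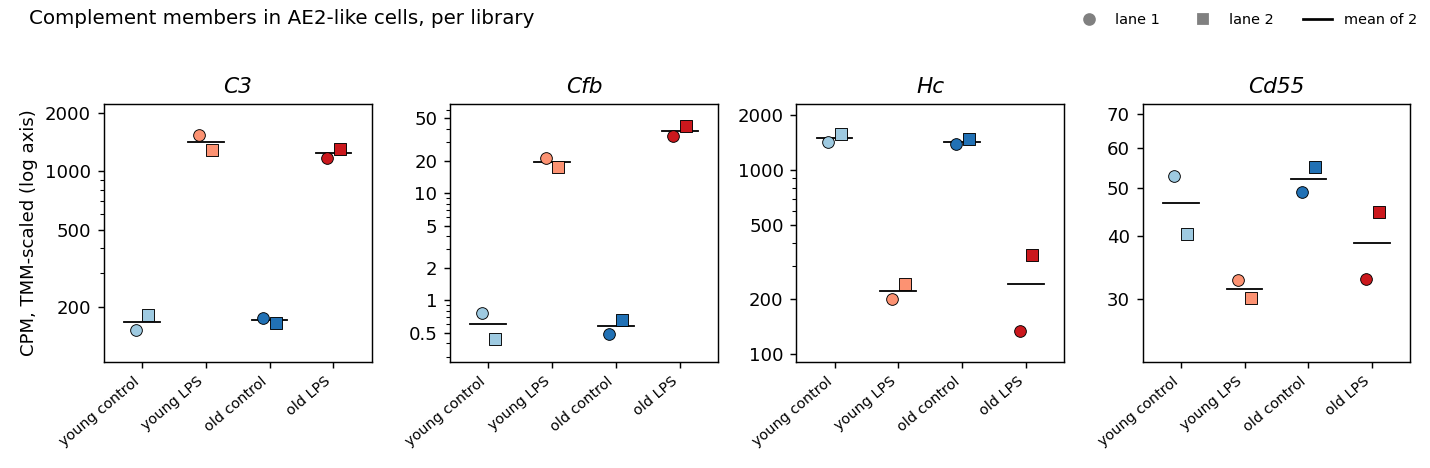
Levels of C3, Cfb, Hc and Cd55 in AE2-like cells, as TMM-scaled CPM on a log axis, for each of the 8 libraries (circles lane 1, squares lane 2, lines the mean of 2). C3 and Cfb sit higher in all 4 LPS libraries, Hc sits lower in all 4, and the 2 old LPS libraries differ for Hc (134 and 346 CPM).

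Genes of the same cascade outside the members moved in both directions too. Of the 47 other listed genes, 11 had enough counts, and after LPS 7 were called higher and 2 lower at each age. Among all 11312 genes tested, 41.1% were called in young and 49.1% in old mice. The filter keeps a gene that is high in 1 treatment alone: C1s1 and Serping1, like Cfb, had at most 5 UMIs in any control library and passed through LPS libraries, while genes low in both treatments were not tested. The counts of called genes therefore lean towards genes that differ and do not describe the whole list. The classical pathway list had 3 of its 11 genes tested, and those 3 rose: C1ra and C1s1, the proteases of the C1 complex, and C1rl, a related protease. C1s1 had 0 and 5 UMIs in young control against 341 and 267 in young LPS, and 3 and 4 in old control against 231 and 358 in old LPS, which was 78.5-fold (exact 95% counting interval 33.5 to 243) and 47.4-fold (22.9 to 119). C1ra rose by 4.98 ± 0.32 and 4.41 ± 0.29 on the log2 scale (adjusted p = 2.41e-08 and 2.65e-08, edgeR), and C1rl by 2.52 ± 0.16 and 1.80 ± 0.15 (adjusted p = 3.01e-09 and 4.78e-08, edgeR).

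Of the 7 terminal pathway genes, 2 were tested and both fell: Hc, and C6, another part of the membrane attack complex. C6 had 95.3 and 115 CPM in young control against 39.4 and 30.4 in young LPS, and 122 and 137 in old control against 29.1 and 55.7 in old LPS. Its log2 fold change was -1.60 ± 0.35 in young and -1.61 ± 0.33 in old mice (adjusted p = 0.0190 and 0.0133, edgeR). The young call was lost without young control 2, young LPS 1 or young LPS 2 (log2 fold change -1.45, -1.79 and -1.42). It was also lost without the filter on low counts (adjusted p = 0.0527, edgeR) and in sums over cells of all classes (adjusted p = 0.0578, edgeR). The old call was lost without old control 2 (log2 fold change -1.52) and in sums over all classes (adjusted p = 0.0555, edgeR). The fit takes the spread from all 8 libraries together, so the unequal old LPS pair also enters the young SE. As with Hc, old LPS 2 lay above old LPS 1. C5ar2, a receptor for the C5a fragment, was the only receptor of 8 with enough counts, and it fell by 1.50 and by 1.32 on the log2 scale (SE 0.26 and 0.23, adjusted p = 0.000219 and 0.000198, edgeR), with the young call lost in sums over cells of all classes (adjusted p = 0.0585).

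Regulators split. The membrane regulators had 4 of 6 tested, with Cd55 lower, Cr1l (Crry, the rodent C3 convertase regulator) higher and Cd46 and Cd59a not called at either age. Cr1l CPM were 35.3 and 38.4 in young control, 56.3 and 58.0 in young LPS, 34.2 and 38.9 in old control, and 68.6 and 56.0 in old LPS. No LPS library overlapped a control library. The Cr1l log2 fold change was 0.63 ± 0.12 in young and 0.76 ± 0.12 in old mice (adjusted p = 0.000693 and 5.57e-05, edgeR), opposite to Cd55. Among the 8 soluble regulators, clusterin (Clu, a chaperone that binds terminal complexes) and Serping1 (the C1 inhibitor) were tested. Both passed the threshold as higher at both ages, but the old Serping1 call rested on few molecules and was not stable. Serping1 was sparse: it had 1 and 1 UMIs in young control against 80 and 40 in young LPS (38.7-fold, exact 95% counting interval 10.5 to 324), and 1 and 0 in old control against 6 and 14 in old LPS (11.3-fold, 1.80 to 467). Its old call (log2 fold change 3.28 ± 1.27, adjusted p = 0.0469, edgeR) was lost without 5 of the 8 libraries, 1 at a time: young control 1, young control 2, old control 1, old control 2 and old LPS 2 (adjusted p = 0.0767, 0.0796, 0.0788, 0.264 and 0.167). Over all 8 such fits the log2 fold change ranged from 2.28 to 5.85. That call was also lost in DESeq2 (adjusted p = 0.0641), with at most 10% mitochondrial UMIs (adjusted p = 0.0683), without the 3% highest doublet scores (adjusted p = 0.0530) and in sums over cells of all classes (adjusted p = 0.0697). In the lectin pathway, 1 of 8 genes was tested: Mbl1, a mannose-binding lectin, rose by 0.99 ± 0.30 and 1.28 ± 0.31 on the log2 scale (adjusted p = 0.0156 and 0.00263, edgeR), and its young call was lost in DESeq2 (adjusted p = 0.0949) and without young control 2 or young LPS 2 (log2 fold change 0.77 and 0.93, adjusted p = 0.195 and 0.0705).

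**Figure D2:**
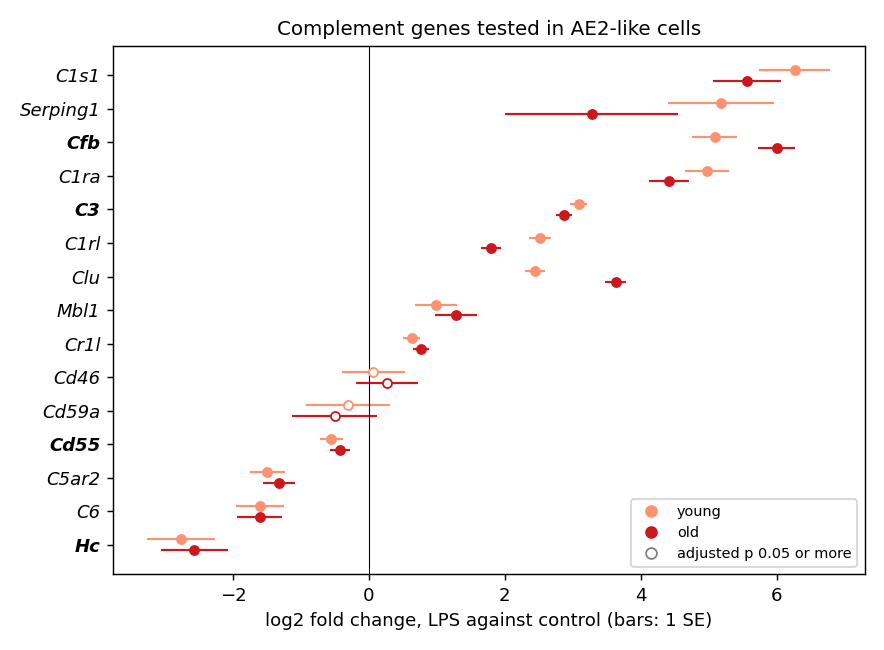
Log2 fold change of LPS against control (x axis, bars 1 SE) for the 15 complement genes with enough counts in AE2-like cells, members in bold, light points young and dark points old, open points not called. C1s1 lies farthest to the right in young mice (6.26) and Cfb in old mice (6.00), Hc lies farthest to the left at both ages, and Clu lies at 2.45 in young and 3.63 in old mice.

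Markers of several other classes moved with LPS in these sums. Here too, a marker at 0 is one with 0 UMIs in the AE2-like cells of all 8 libraries together. Alveolar macrophage markers summed to 12.6 to 22.9 CPM in control and 63.0 to 74.9 CPM in LPS AE2-like sums (9 markers, none at 0, Plet1 and Chil3 the most abundant). Monocyte/macrophage markers went the other way (21.7 to 46.8 and 9.29 to 19.3 CPM, F13a1 at 0), and neutrophil markers lay at 2.01 to 3.94 and 1.65 to 3.93 CPM. Endothelial markers (5.98 to 7.32 and 18.0 to 28.3 CPM, none at 0) and platelet markers (14.6 to 23.8 and 133 to 204 CPM, with Gp9 and Gp1bb at 0) were higher in LPS, and club/secretory markers were lower (4530 to 7690 and 1680 to 3630 CPM, 8 markers, none at 0). Ciliated markers also were lower in LPS (122 to 133 and 29.2 to 43.7 CPM, 8 markers, none at 0), as was Cd55, whose level is highest in ciliated-like cells. After LPS, alveolar macrophage-like cells held less C3 than AE2-like cells (266 to 458 against 1152 to 1528 CPM) and more Cfb (138 to 288 against 17.7 to 41.8 CPM). The part of these cells or of their RNA in the member changes was not tested.

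No age difference of the members was detected in control mice. None of the 4 tested members was called by edgeR (0.61% of all genes were), 0 had an unadjusted p under 0.05 and DESeq2 called 0, and the log2 difference of old against young was 0.03 for C3, 0.06 for Cfb, -0.06 for Hc and 0.18 for Cd55 (adjusted p = 0.973, 0.995, 0.987 and 0.786, edgeR). The intervals of 2 SE were -0.20 to 0.25 for C3, -1.37 to 1.48 for Cfb, -0.99 to 0.86 for Hc and -0.13 to 0.50 for Cd55. The C3 interval was the narrowest, and those of Cfb and Hc were wide. The Cd55 interval reached a size as large as the LPS change of Cd55 in old mice (-0.42).

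After LPS, Cfb was about 2-fold higher in old than in young mice. It was the only one of the 4 tested members called (4.2% of all genes were), with a log2 difference of 0.97 ± 0.14 (adjusted p = 0.000803, edgeR), and both old LPS libraries exceeded both young ones. The call was kept without any 1 library (log2 difference 0.81 to 1.11), and lost in sums over cells of all classes (0.67, adjusted p = 0.613). The LPS effect itself, old against young, was not called for any of the 4 by edgeR (0.743% of all genes were), with 0 at an unadjusted p under 0.05 and 0 called by DESeq2. For Cfb that difference was 0.91 ± 0.76 on the log2 scale (adjusted p = 0.751, edgeR), with few control UMIs behind it. For C3 it was -0.22 ± 0.16 (adjusted p = 0.697) and for Cd55 0.13 ± 0.22 (adjusted p = 0.896).

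The Hc age comparison after LPS rested on single libraries. The log2 difference of old against young LPS was 0.13 ± 0.47 (adjusted p = 0.926, edgeR). It was 0.66 without old LPS 1 and -0.72 without old LPS 2, so its direction depended on the library left out. The age difference of the LPS effect was likewise 0.72 and -0.66. Either fit leaves 1 old LPS library and cannot measure the spread of that group. For Cd55, the old against young LPS difference was 0.31 ± 0.15 (adjusted p = 0.320, edgeR), and 0.51 without old LPS 1. Clu was the only complement gene called for an age difference of the LPS effect, at 1.18 ± 0.20 (adjusted p = 0.0239, edgeR). With the lane as a block, that call was lost (1.19, adjusted p = 0.124), as it was without 5 of the 8 libraries, 1 at a time (adjusted p up to 0.252). Its CPM were 101 and 138 in young control, 739 and 579 in young LPS, 83.4 and 77.5 in old control, and 1004 and 990 in old LPS. Serping1 was lower in old than in young LPS (10.5 and 4.39 against 0.546 and 1.11 CPM, log2 difference -3.09 ± 0.47, adjusted p = 0.00227, edgeR), a call that was lost in sums over cells of all classes (-1.18, adjusted p = 0.613).

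More AE2-like cells held C3 and fewer held Hc after LPS. Cells were thinned to 2000 UMIs, because LPS cells were deeper (median 7606 to 9116 UMIs per library against 5707 to 7067 in control), and 97 shallower cells were left out. The share of AE2-like cells with a C3 UMI was then 24.2% to 28.7% in the 4 control and 77.4% to 88.9% in the 4 LPS libraries. For Hc the shares were 86.9% to 90.9% and 20.8% to 39.97%, and for Cfb 0.0745% to 0.146% and 2.78% to 5.85%. Each of these 3 gave p = 0.0286 in a two-sided exact permutation test over libraries (4 against 4, 70 splits), the smallest p this design can give, without adjustment for the 5 members tested. Cd55 had 7.37% to 10.2% in control and 5.72% to 8.21% in LPS, where the ranges overlapped (exact permutation p = 0.0571). Without thinning, the shares were 49.9% to 61.0% and 91.0% to 98.6% for C3, 96.7% to 99.0% and 53.3% to 69.7% for Hc, 0.286% to 0.478% and 8.21% to 17.6% for Cfb, and 22.1% to 30.3% and 19.8% to 30.1% for Cd55. In alveolar macrophage-like cells, the share with an Hc UMI was 5.15% to 13.5% in control and 0% to 6.46% in LPS libraries at the same 2000 UMIs. The median depth of those cells was 3901 to 5550 UMIs in control and 6119 to 9540 in LPS libraries. That of Cd55 was at most 1.22% in control and 0.842% in LPS libraries.

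Within AE2-like cells, C3 and Hc took opposite levels between control cells of clusters 1, 2 and 17 and LPS cells of clusters 3 to 7 and 12. The 10 clusters of AE2-like cells were formed with complement genes among the 2000 variable genes, so their levels are a description without a test. In clusters 1, 2 and 17, which held 3641 control cells in sums of at least 10 cells, C3 was 116 to 452 CPM and Hc 1215 to 1725 CPM per library. Cluster 17, led by Scd1, had the highest control levels of C3 (307 to 452 CPM). In clusters 3 to 7 and 12, which held 4256 LPS cells, C3 was 943 to 1823 CPM and Hc 58.9 to 454 CPM. These values set control cells against LPS cells, so their ranges, which did not overlap for either gene, restate the treatment difference. The 86 LPS cells of the first set had 94.5 to 201 CPM of C3 and 867 to 1211 CPM of Hc.

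In another cluster, LPS cells had C3 levels near those of control cells. Their Hc levels lay between control cells of clusters 1, 2 and 17 and LPS cells of clusters 3 to 7 and 12. Cluster 8, led by Pmvk, Fmo2 and Cyp2b10, held 411 LPS cells with 192 to 276 CPM of C3 and 553 to 1094 CPM of Hc, and 0 to 5.06 CPM of Cfb. Its 151 control cells had 90.1 to 244 CPM of C3 and 1249 to 1790 CPM of Hc. The cluster was unevenly filled, with 33 cells in old LPS 1 and 254 in old LPS 2, the library with the higher Hc level, and 34 and 90 in the young LPS libraries. Without this cluster, the Hc change was -2.89 in young and -2.99 in old mice, and the old against young difference after LPS was -0.18. This alternative was added after the data were seen. Clusters were formed with complement genes among the variable genes, and the LPS cells left out had more Hc than those of clusters 3 to 7 and 12. A larger fall thus follows from the choice of cells, and these values are a description without a test.

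Cfb varied widely among LPS clusters. Cluster 7, led by the interferon-response genes Cxcl10 and Gbp2, had 39.5 ± 5.17 CPM in young LPS and 81.2 ± 36.9 CPM in old LPS (SD, n = 2). Cluster 12, led by the cytokine genes Csf3 and Cxcl2 and with 364 of its 378 cells from old LPS, had 61.5 ± 22.2 CPM. Cluster 3, led by Itih4, had 5.46 ± 0.73 and 10.7 ± 5.57 CPM in young and old LPS. In cluster 5, another interferon-response cluster led by Iigp1, the old LPS libraries had 52.7 ± 4.60 CPM and the young 16.9 ± 6.45 CPM. Cd55 was lowest in cluster 7, with 19.1 ± 4.21 and 24.6 ± 6.94 CPM in young and old LPS.

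**Figure D3:**
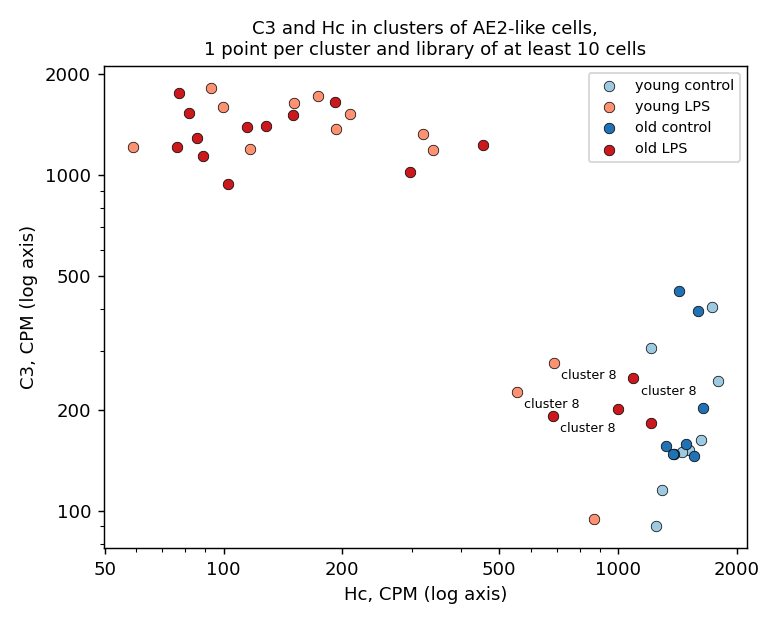
C3 against Hc in CPM, both on log axes, with 1 point for each AE2-like cluster and library that has at least 10 cells (8 young control, 13 young LPS, 8 old control and 16 old LPS points). LPS points lie at the upper left (C3 943 to 1823 CPM) except those of clusters 1, 2 and 8, which lie beside the control points at 94.5 to 276 CPM of C3.

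Outside AE2-like cells, C3 passed the test as higher after LPS in ciliated-like and in club/secretory-like cells. In ciliated-like cells, part of its level lay within a level scaled from AE2-like cells, given below. In ciliated-like cells, which move mucus in the airway, its TMM-scaled CPM were 26.1, 17, 28.9 and 18.3 in the control libraries and 157, 149, 130 and 196 in the LPS libraries. The groups did not overlap, and the log2 fold change averaged over the ages was 2.66 ± 0.21 (adjusted p = 2.05e-11, edgeR). Droplet libraries carry free RNA from other cells, and the AE2 transcript Sftpc was used to gauge that from AE2 cells. The AE2-like levels of each library were scaled by the class's share of the AE2-like Sftpc level (1.96% to 8.06% in ciliated-like cells). Control and LPS groups were pooled on each lane, so free RNA can come from both, which this scaling within a library leaves out. The AE2 marker sum was lower in LPS AE2-like cells, so Sftpc from control cells would raise the scaled LPS level. The C3 level so scaled was 3.13 to 11.9 CPM in control and 51.0 to 123 CPM in LPS ciliated-like sums, and the measured level was 1.40 to 8.37 times that in control and 1.19 to 2.68 times in LPS. After subtraction, 4.82 to 26.1 CPM were left in control and 23.0 to 116 CPM in LPS libraries, so the groups then overlapped, through young LPS 1. The fit did not subtract free RNA, and its part in the ciliated-like change was not tested. In club/secretory-like cells, the secretory cells of the airway, C3 was 104, 133 and 77.4 CPM in 3 control and 671, 635 and 606 CPM in 3 LPS libraries (2.60 ± 0.25, adjusted p = 1.72e-06, edgeR). There 57.2 to 115 CPM in control and 533 to 647 CPM in LPS were left after the same subtraction, without overlap. Of the members, 2 of 3 tested were called in ciliated-like cells (17.4% of all 7907 genes) and 2 of 5 in club/secretory-like cells (7.70% of all 3037 genes). The C3 change of AE2-like cells differed from that of ciliated-like cells by 0.19 ± 0.23 (adjusted p = 0.648, interval of 2 SE -0.27 to 0.66, free RNA included) and from that of club/secretory-like cells by 0.15 ± 0.23 (adjusted p = 0.917, -0.31 to 0.60). Club/secretory-like sums rested on 10 to 69 cells, with 2 libraries of fewer than 10 cells left out. Young control and young LPS therefore had 1 library each in the club/secretory-like fits.

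Cfb rose in club/secretory-like cells as well, from 4.32, 3.81 and 0 CPM in control to 166, 129 and 89.1 CPM in LPS (5.29 ± 0.54, adjusted p = 4.28e-06, edgeR). In ciliated-like cells it had 1 UMI in all control and 43 in all LPS libraries and was not tested. In alveolar macrophage-like cells, Cfb was 5.71 to 26.0 CPM in 4 control and 138 to 288 CPM in 3 LPS libraries, with 444 and 69 cells. Those cells came from different clusters, the LPS ones partly from a cluster led by Ccl9, so the values stand without a test. After LPS, the Cfb ranges of macrophage-like and club/secretory-like cells (80.5 to 168 CPM) overlapped, and both lay above AE2-like cells (17.7 to 41.8 CPM), which lay above ciliated-like cells (7.41 to 16.1 CPM).

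Hc was highest in AE2-like cells. In control libraries it averaged 1466 ± 75.2 CPM there (SD, n = 4), 164 ± 62.6 in alveolar macrophage-like (n = 4), 60.5 ± 20.3 in ciliated-like (n = 4) and 38.2 ± 43.2 CPM in club/secretory-like cells (n = 3), and the lower neighbours overlapped. In ciliated-like cells, Hc fell from 30.1 to 74.9 CPM in control to 12.6 to 22.1 CPM in LPS (log2 fold change -1.69 ± 0.29, adjusted p = 5.83e-05, edgeR). Against the level scaled by Sftpc, the Hc of ciliated-like cells was 0.717 to 2.16 times as high, with a median of 1.15, and that of macrophage-like cells 0 to 1.38 times, with a median of 0.993. Hc in these classes lay near that scaled level, which takes the AE2-like cells of the same library as the only source. Cd55 was 122 to 348 times the scaled level in ciliated-like cells. The Hc change was 1.16 ± 0.28 larger in AE2-like than in ciliated-like cells on the log2 scale (difference -1.16, adjusted p = 0.00233, edgeR).

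Cd55 had its highest level in ciliated-like cells and no change was detected there. Its CPM were 377, 368, 336 and 312 in control and 343, 362, 328 and 379 in LPS libraries, so the groups overlapped. The log2 fold change was 0.01 ± 0.10 (adjusted p = 0.960, edgeR), with an interval of 2 SE from -0.19 to 0.21. Club/secretory-like cells had 78.3 ± 32.4 CPM in control and 89.1 ± 14.6 CPM in LPS (SD, n = 3 each; 0.14 ± 0.28, adjusted p = 0.811, edgeR), AE2-like cells 49.5 ± 6.47 and 34.8 ± 6.47 CPM (n = 4 each), and macrophage-like cells 11.6 ± 7.31 and 8.30 ± 7.97 CPM. The change in AE2-like cells differed from that in ciliated-like cells by -0.61 ± 0.15 (adjusted p = 0.00247, edgeR), and this held without any 1 library (-0.71 to -0.51). Against club/secretory-like cells the difference was -0.98 ± 0.31 (adjusted p = 0.0565, edgeR), which missed the threshold, and it passed without young control 1 or old LPS 2 (-1.32 and -1.17, adjusted p = 0.0406 and 0.0319). Of the members tested, 2 of 4 differed between AE2-like and ciliated-like cells (15.1% of all genes) and 0 of 5 between AE2-like and club/secretory-like cells (2.21% of all genes, 1 member at an unadjusted p under 0.05).

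Factor H was seen mainly in club/secretory-like cells. It had 48 UMIs there in 6 libraries, from 0 to 49.5 TMM-scaled CPM, with 18 UMIs in control and 30 in LPS. Its log2 fold change was -0.71 ± 1.17 (adjusted p = 0.785, edgeR), which is too imprecise to bound a change. Ciliated-like cells had 1 UMI and alveolar macrophage-like cells 8.

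**Figure D4:**
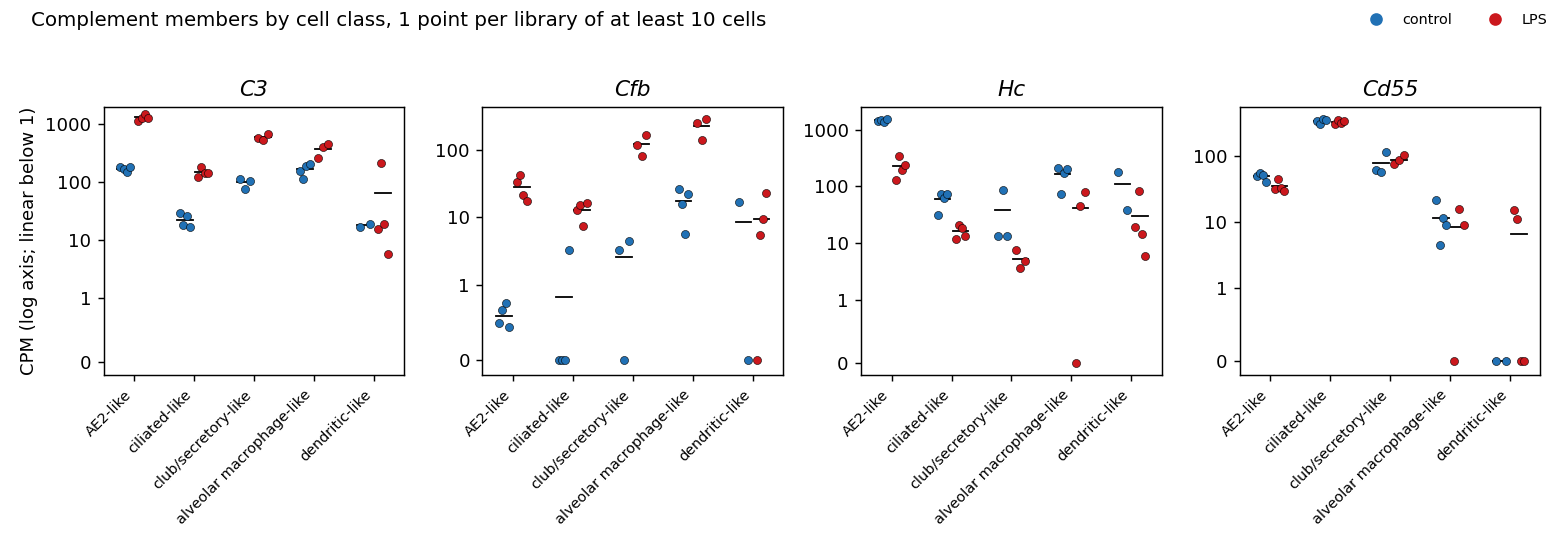
Levels of C3, Cfb, Hc and Cd55 in CPM (log axis, linear below 1) by cell class, with 1 point per library of at least 10 cells, control in blue, LPS in red, and lines for means. C3 is higher in LPS in 4 of the 5 classes, with overlap in dendritic-like cells, Hc is highest in AE2-like control cells (1466 CPM), and Cd55 in ciliated-like cells (348 and 334 CPM).

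For each member, the 3 genes most like it in AE2-like cells were those with the highest Pearson r of log2(CPM + 1) over the 8 libraries, among 4558 genes with a mean of at least 20 CPM. For C3 they were Slc39a7, Bst2 and Serinc3 (r = 0.999, 0.997 and 0.997). Cfb was most like the chemokine genes Cxcl1 and Cxcl5 (r = 0.996 and 0.995) and Srp72 (r = 0.996). The genes most like Hc were Thsd4, Abhd2 and Antxr1 (r = 0.998, 0.997 and 0.997), and those most like Cd55 were Strn3, Taok1 and Asxl2 (r = 0.978, 0.961 and 0.945). The 8 libraries fall into control and LPS, so these values describe shared treatment differences and are given without a test.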

How the data were processed

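The authors deposited raw UMI counts per gene and barcode, 1 table per group and lane, with no normalization. The submitters' processing notes name build mm10, bcl2fastq, STAR, Cell Ranger 3.1.0, R 3.6.3 and Seurat 3.1.5 and 3.1, without saying which did what; how reads shared by 2 genes were counted is not given in those notes. The members and lists were chosen with earlier results of these data known.

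Of 14048 barcodes, 2803 with under 500 genes or over 20% mitochondrial UMIs were removed. Scrublet marked 13 of 11245 cells, under 0.5%, and is taken not to have worked, so an alternative removed the 3% with the highest scores. Clustering (scanpy 1.11.5, 2000 variable genes, 30 components, 20 neighbours, leidenalg 0.10.2, resolution 1) gave 24 clusters, named by markers of 21 classes. The suffix -like marks a name that rests on marker transcripts. No barcode was shared by libraries of a lane, and free RNA was not removed.

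UMI counts were summed per library and class (at least 10 cells) and tested with edgeR 4.0.16 in R 4.3.3 (filterByExpr, TMM, robust quasi-likelihood test), with Benjamini-Hochberg adjustment over all genes tested. The AE2-like fit held all 8 libraries at once, with 4 residual degrees of freedom. The ciliated-like fit also held 8 libraries. The club/secretory-like fit held 6, with 1 library each in young control and young LPS, so fewer degrees of freedom were left. The test of class differences kept the library as a block. SEs are approximate. Named were the members, other complement genes called in a comparison, and the 3 genes most like each member. DESeq2 1.42.0, other scaling, filters and cell sets, the lane as a replicate block and each library left out were alternatives. The lane is a repeat of the whole experiment per the labels and pairs the libraries; deviations of libraries on the same lane correlated at 0.0048 to 0.318 over 4558 genes.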

Additional observations from a re-analysis of the deposited data

Results flagged for a closer look

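The values below are differences between groups in the size of the LPS effect that passed their own test (edgeR, adjusted p). The LPS effect on Clu was 1.18 ± 0.20 larger on the log2 scale in old than in young AE2-like cells (adjusted p = 0.0239), and this call was lost with the lane as a block and without 5 of the 8 libraries, 1 at a time (adjusted p up to 0.252). Between AE2-like and ciliated-like cells, the LPS effect differed by -0.61 for Cd55 (adjusted p = 0.00247, edgeR) and by -1.16 for Hc (adjusted p = 0.00233, edgeR). The Hc levels in ciliated-like cells lay near those scaled from AE2-like cells by Sftpc. For Cr1l the difference was 1.02 ± 0.24 (adjusted p = 0.00177): its level rose in AE2-like cells and was 37.5 to 69.5 CPM in control and 33.7 to 42.6 CPM in LPS ciliated-like cells. For C1s1 it was 4.84 ± 1.41 (adjusted p = 0.0128), with 12 UMIs in all ciliated-like cells, and the call was lost without 1 library (adjusted p = 0.328). For Cd55b, the paralog of Cd55, the fitted difference was 5.28 ± 1.32 (adjusted p = 0.00349). It rests on 16 UMIs in AE2-like cells, 0 of them in control libraries, and on 40 in ciliated-like cells, so its size depends on the prior count and is no bound. Between AE2-like and club/secretory-like cells, the LPS effect on Clu differed by 0.80 ± 0.23 (adjusted p = 0.0275), a call that was lost without 3 of 6 libraries, 1 at a time (adjusted p up to 0.871).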

How the results depend on the processing

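C3 and Cfb kept their direction and call for LPS against control in all 36 alternatives run for each gene (both ages together). Hc kept both in 31 of 36 and Cd55 in 28 of 36. The cause of each change below was not tested. Fits on fewer libraries also estimate the shared spread anew, which can raise or lower an adjusted p. With cells of all classes summed, Cd55 was -0.36 in young and 0.18 in old mice for LPS and -0.10 for age in controls, and Cfb was 0.67 for age after LPS and -0.38 for the age difference of the LPS effect. In the same sums, called genes numbered 2864, 3198, 1, 5 and 0 in place of 4648, 5558, 69, 475 and 84 (LPS in young, LPS in old, age in controls, age after LPS, age difference), and called complement genes were 0 in place of 3 and 0 in place of 1 in the last 2. DESeq2 gave -0.42 for Cd55 in old mice, not called, and called 44 genes for age in controls and 208 after LPS. Without the filter on low counts, 234, 879 and 286 genes were called in the 3 age comparisons, with 1 complement gene for age in controls. Clustering without complement genes left 92.65% of cells in the same class. It gave 117, 810 and 152 calls and turned 3 uncalled differences (Cfb for age in controls -0.067, Hc after LPS -0.13 and its age difference -0.078). C3 for age in controls was -0.0023 when cells over 10% mitochondrial UMIs were removed.

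With the lane as a replicate block, no member changed its call, and 0 in place of 1 complement gene was called for the age difference of the LPS effect (Clu, 1.19). Removing the 3% highest doublet scores also left 0. Among alternatives added after the data were seen, leaving out cluster 8 gave 139, 970 and 196 calls in the age comparisons, 1 complement gene for age in controls, and -0.18 and -0.10 for Hc after LPS and its age difference. Counting the unnamed Mgp cluster as AE2-like gave 1 complement call for age after LPS and turned Serping1 in old mice to -1.22.

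Leaving out each library in turn, the log2 ranges were -0.75 to -0.37 (Cd55) and -2.90 to -2.63 (Hc) for LPS in young mice, and -0.66 to -0.22 and -3.41 to -2.04 in old mice. For age in controls they were -0.029 to 0.35 (Cd55), -0.41 to 0.39 (Cfb) and -0.11 to 0.16 (C3), and after LPS 0.070 to 0.51 (Cd55) and -0.72 to 0.66 (Hc). The age difference ranged from -0.12 to 0.33 for Cd55 and from -0.66 to 0.72 for Hc. Cd55 in ciliated-like cells ranged from -0.030 to 0.073. The class differences ranged from -2.75 to 1.67 for Cfb (ciliated-like), and for club/secretory-like cells from -1.32 to -0.73 (Cd55), -1.95 to 0.26 (Hc) and -0.060 to 0.38 (C3). Called genes ranged from 2912 to 5324 for LPS in young mice, 7 to 273 for age in controls, 174 to 1708 for age after LPS and 9 to 712 for the age difference. Called complement genes ranged from 0 to 1, 2 to 6 and 0 to 1 in the 3 age comparisons. A group left with 1 library is assumed to vary like the others. For club/secretory-like cells, leaving out young control 1 or young LPS 1 empties a group and was not run. Only 2 libraries per group, the few Cfb and factor H UMIs in control cells and the small club/secretory-like sums limit the precision.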

Other observations

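Serping1, which encodes the C1 inhibitor, had its clearest signal outside AE2-like cells. In ciliated-like cells its TMM-scaled CPM were 6.95 and 6.81 in young control, 179 and 180 in young LPS, 4.81 and 14.7 in old control, and 70.4 and 72.1 in old LPS. All LPS libraries lay above all control libraries, and the log2 fold change averaged over the ages was 3.95 ± 0.27 (adjusted p = 5.95e-13, edgeR). Both old LPS libraries lay below both young ones there, as in AE2-like cells. The age difference in ciliated-like cells was not tested. Clu rose in ciliated-like cells too (log2 fold change 2.04 ± 0.28, adjusted p = 0.00194, edgeR), from 36.7 to 228 CPM in control to 243 to 357 CPM in LPS libraries. That call was lost without old control 1 (log2 fold change 2.04, adjusted p = 0.0609).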
